A study of Mus musculus with 12 samples.

Results

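The TGF-beta ligands, receptors and effectors described here are 10 genes of the white adipose tissue of obese mice, out of 49315 genes counted. They were taken by symbol: the ligands Tgfb1, Tgfb2, Tgfb3 and Inhba, the matrix protein Ltbp2, the receptors Tgfbr1 and Tgfbr2, the signal proteins Smad3 and Smad7, and the secreted target Ccn2. All 10 had a row in the count table and all 10 passed the filter on low counts, which left 18702 genes to test.

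The tissue came from male mice that were fed for 12 weeks with food of 60% fat (high-fat diet), and it is named epididymal white adipose tissue (eWAT) in the methods of the study. The FLOX group is miR-181a2b2flox/flox mice, in which the Mir181a2b2 locus is flanked by loxP sites and intact, and the KO group is miR-181a2b2-/- mice, which lack the locus. Both groups were injected once a week with vehicle, and the FLOX_MTX and KO_MTX groups were mice of the same genotypes injected with methotrexate (MTX) at 1 mg/kg per week, so that all 4 groups share the diet and the injections. No Cre is named for the FLOX mice. Each group has 3 libraries. The labels do not say that these came from separate mice, so p-values measure only the spread between these samples, which may be technical. The ages of the mice are not given in the sources used here. The study asked how MTX and the loss of the locus change this tissue in obesity.

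TGF-beta is made as a precursor that stays bound to its own propeptide, and several latent TGF-beta binding proteins hold this complex in the extracellular matrix until integrins or proteases release the ligand. The active ligand binds the type II receptor, which recruits and phosphorylates the type I receptor, and the type I receptor then phosphorylates Smad2 and Smad3, which move to the nucleus with Smad4 and change transcription. In adipose tissue the pathway is known for its part in fibrosis and for restraining the formation of new adipocytes, and macrophages are a main source of the TGF-beta1 ligand.

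The locus deleted in the KO mice encodes miR-181a and miR-181b, so their mature sequences are shown with those of the other miR-181 family members, which share the seed (bases 2 to 8, in capitals; RefSeq, GRCm38.p6).
mmu-miR-181a-5p: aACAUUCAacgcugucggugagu
mmu-miR-181b-5p: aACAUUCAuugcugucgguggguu
mmu-miR-181c-5p: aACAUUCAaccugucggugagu
mmu-miR-181d-5p: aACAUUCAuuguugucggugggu
The deleted copies lie on chromosome 2 (miR-181a at chr2:38852741-38852763 and miR-181b at chr2:38853845-38853868, plus strand), and identical copies of miR-181a and miR-181b on chromosome 1 were not deleted. The 3′ untranslated regions of the members (GRCm38, GENCODE M21, the longest per gene) were searched for the letters TGAATGTA (an 8mer match to the seed), TGAATGT (7mer-m8) and GAATGTA (7mer-A1), each longer match counted once. Of 21690 genes with such a region, 20.5% held at least 1 match and 5.15% held an 8mer. Among the members, 3 of 10 held a match: Tgfbr1 held 2 8mers, and Inhba and Smad7 held 1 7mer-m8 each. Their regions were 4157, 4495 and 1573 bases long, beside a median of 919 bases over all genes, so the shares are not matched for length. Both Tgfbr1 matches and the Inhba match are shown with their flanks, the match in capitals.
Tgfbr1, chr4:47411193-47411200, plus strand: ttggttcacttTGAATGTActgttctataa
Tgfbr1, chr4:47411941-47411948, plus strand: tatagttaataTGAATGTAcaagtgtaggt
Inhba, chr13:16028781-16028787, plus strand: tcttaaaacaaTGAATGTttgtgtgcaaa
No match was found in the 3′ untranslated regions of Tgfb1, Tgfb2, Tgfb3, Tgfbr2, Smad3, Ccn2 or Ltbp2, which were between 138 bases (Tgfb1) and 6088 bases (Tgfbr2) long.

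The 12 libraries held between 19495310 and 23976469 counts each, with a median of 21824170. The deleted microRNAs could not be used to check the genotype: Mir181b-2 had 0 counts in all 12 libraries and Mir181a-2 had 0 counts in 11, with 2 counts in FLOX_MTX replicate 4, each 0 allowing up to 3 counts. The 3 FLOX libraries stood apart from the rest by genes of neighbouring organs. The summed level of 16 epididymis genes was 4569, 11819 and 1484 CPM (counts scaled to a common library size) in FLOX replicates 1, 3 and 4 and 489 in FLOX_MTX replicate 1, against 1.18 to 19.5 in the other 8 libraries, and that of 12 testis germ cell genes was 287 to 748 in FLOX against 35.1 to 62.4 elsewhere. All 10 adipocyte markers were above 3 counts in every library. Since all FLOX libraries carried this signal, no comparison with FLOX could be made without it, so each was also fitted with FLOX reduced to replicate 4, which had the least epididymis signal. In bulk tissue, fewer cells of a type and less RNA per cell cannot be told apart.

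Tgfb1 and Tgfbr2, the main ligand and the type II receptor, had the same order of group levels: FLOX lowest, then FLOX_MTX, KO and KO_MTX. Tgfb1 (chr7:25687002-25705077, plus strand) stood at 35.8, 56.9 and 45.5 normalised CPM in the 3 FLOX libraries, at 101, 105 and 141 in KO, at 76.7, 102 and 41.2 in FLOX_MTX and at 162, 173 and 123 in KO_MTX. Every KO and KO_MTX library was above every FLOX library, while the FLOX_MTX libraries overlapped both FLOX and KO. Tgfbr2 (chr9:116084293-116175360, minus strand) stood at 73.5, 53.7 and 81.8 normalised CPM in FLOX, at 165, 195 and 198 in KO, at 149, 167 and 95.8 in FLOX_MTX and at 190.3, 285 and 204 in KO_MTX. For this receptor all 9 libraries of the other groups lay above FLOX, and the 3 higher groups overlapped from neighbour to neighbour. The group mean of KO_MTX was 3.31-fold that of FLOX for Tgfb1 and 3.25-fold for Tgfbr2.

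**Figure D1:**
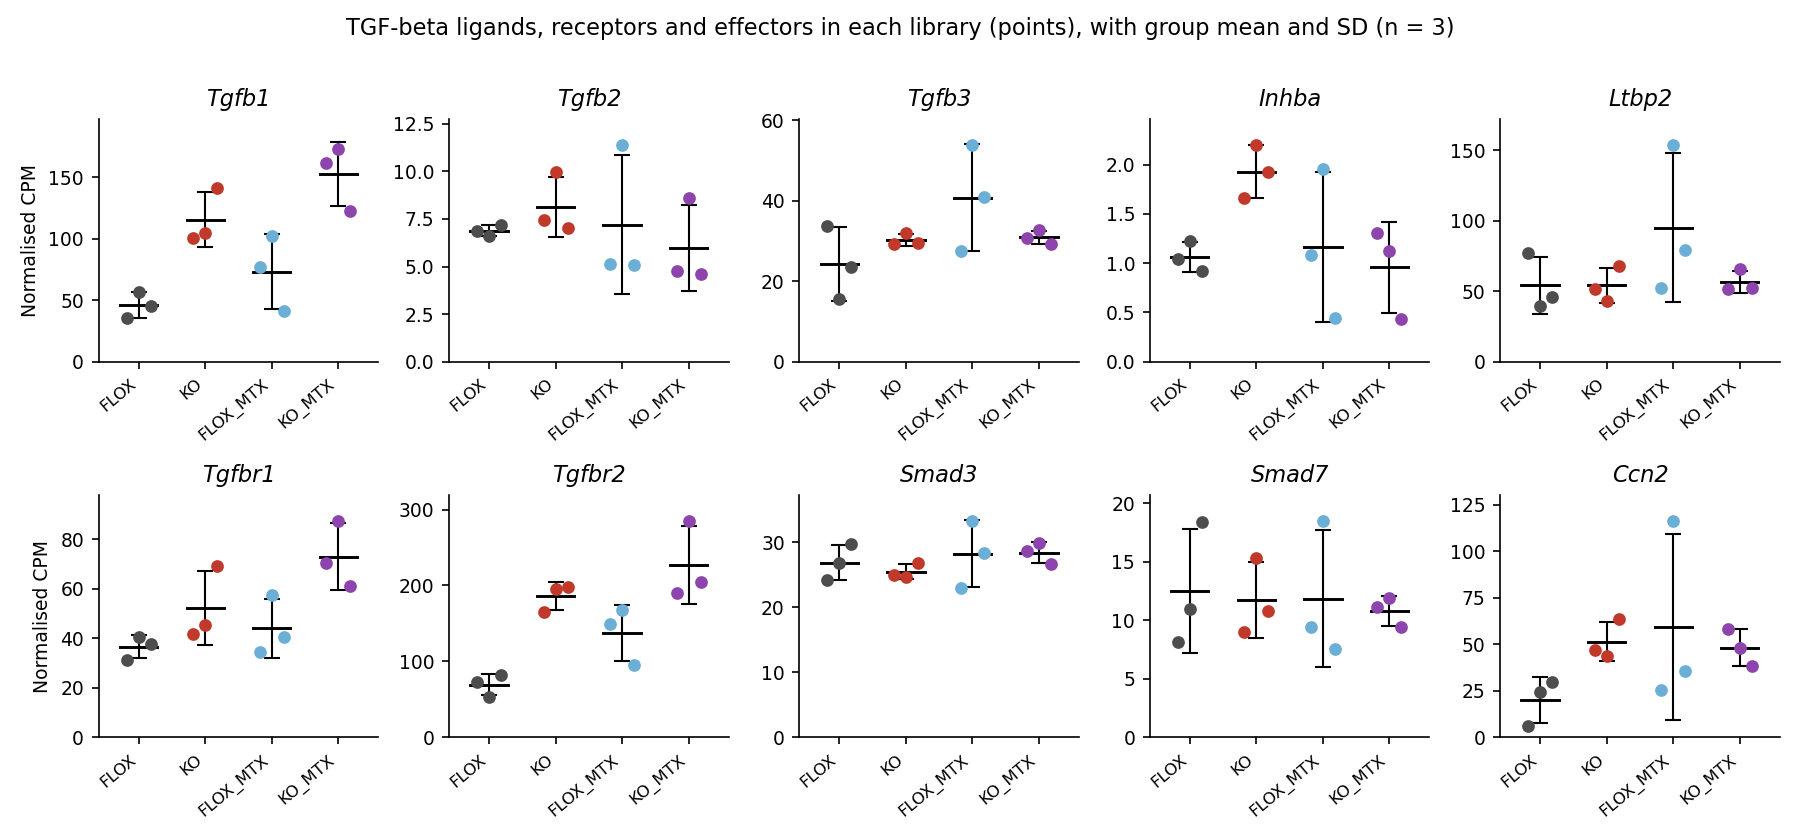
Normalised CPM (vertical axis, linear, from 0) of the 10 genes in each of the 12 libraries (points, in the order of the replicate numbers), by group, with the group mean (bar) and SD (whiskers, n = 3). Tgfb1 and Tgfbr2 are lowest in FLOX and highest in KO_MTX, while Smad3 lies between 23.1 and 33.4 in all libraries and FLOX_MTX replicate 2 is the highest of its group in all 10 panels.

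The other ligands and Ltbp2 showed no such order. Tgfb2, a ligand with a wide role in development, stood between 4.59 and 11.4 normalised CPM in the 12 libraries, and neighbouring groups in its order overlapped. Tgfb3, the ligand best known from palate and wound biology, stood at 33.8, 15.5 and 23.4 in FLOX, at 29.2, 32.0 and 29.4 in KO, at 27.4, 53.9 and 41.0 in FLOX_MTX and at 30.6, 32.7 and 29.2 in KO_MTX. Only the FLOX_MTX group held libraries above 33.8. Inhba, which encodes the subunit of activin A, was the lowest of the members, with 7 to 52 raw counts per library. It stood at 1.04, 1.22 and 0.923 normalised CPM in FLOX, at 1.66, 2.20 and 1.92 in KO, at 1.09, 1.95 and 0.438 in FLOX_MTX and at 1.30, 1.13 and 0.437 in KO_MTX. The KO libraries lay above the FLOX and KO_MTX libraries but not above FLOX_MTX replicate 2. Ltbp2, a matrix protein that belongs to the latent TGF-beta binding protein family by structure but does not bind latent TGF-beta itself, stood between 39.5 and 79.2 in 11 libraries and at 154 in FLOX_MTX replicate 2.

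The type I receptor and the Smad genes differed less between groups than Tgfb1 and Tgfbr2. Tgfbr1 (chr4:47353222-47414931, plus strand) stood at 31.4, 40.4 and 37.9 normalised CPM in FLOX, at 41.7, 45.4 and 69.2 in KO, at 34.3, 57.4 and 40.5 in FLOX_MTX and at 70.2, 87.4 and 61.1 in KO_MTX. Its order of group means was that of Tgfb1, each group overlapped its neighbour as for Tgfb1, and KO_MTX had 1.99-fold the mean of FLOX. Smad3, the receptor-activated signal protein, had group means between 25.5 ± 1.21 (KO) and 28.5 ± 1.64 (KO_MTX) normalised CPM (SD, n = 3), and Smad7, the inhibitory Smad that TGF-beta itself induces, between 10.8 ± 1.29 (KO_MTX) and 12.5 ± 5.28 (FLOX). Neither gene had a group that stood apart from its neighbour in the order.

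Ccn2, which encodes connective tissue growth factor and is a classical TGF-beta target, had the widest spread within a group. It stood at 6.16, 24.2 and 29.9 normalised CPM in FLOX, at 46.9, 43.7 and 63.3 in KO, at 25.5, 116 and 35.8 in FLOX_MTX and at 58.1, 48.3 and 38.4 in KO_MTX. All KO and KO_MTX libraries lay above all FLOX libraries. The FLOX_MTX group spanned the range of every other group but the lower FLOX libraries, with a coefficient of variation of 84.0%. Ccn2 is a short gene (chr10:24595442-24598683, plus strand) that overlaps exons of Gm15270 on the other strand. Tgfb2, Tgfb3 and Ltbp2 also overlap exons of antisense genes (Gm29491, Gm37804 and D030025P21Rik), and since the strand setting of the counting is not stated, reads of such partners cannot be told apart.

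Levels of different genes can be compared only per length. In CPM per kilobase of exon, the FLOX means were 9.13 ± 2.10 for Tgfb1, 8.51 ± 1.76 for Tgfbr2, 7.16 ± 2.71 for Tgfb3, 7.03 ± 4.34 for Ccn2, 6.60 ± 2.45 for Ltbp2, 5.59 ± 0.708 for Tgfbr1, 4.86 ± 0.490 for Smad3, 2.76 ± 1.17 for Smad7, 1.19 ± 0.0517 for Tgfb2 and 0.166 ± 0.0233 for Inhba (SD, n = 3). Each of the first 7 overlapped its neighbour in this order. In KO, Tgfb1 (22.9 ± 4.41), Tgfbr2 (22.7 ± 2.29) and Ccn2 (17.9 ± 3.67) were the highest in CPM per kilobase, followed by Tgfb3 at 8.92 ± 0.468.

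Under vehicle, 2 of the 10 members were higher in KO than in FLOX with edgeR. Tgfbr2 was 2.67-fold higher in KO than in FLOX (log2 fold change 1.42, SE 0.24, adjusted p = 0.00348 in edgeR) and Tgfb1 was 2.51-fold higher (1.33, SE 0.30, adjusted p = 0.0082). Genes were called at an adjusted p under 0.1 and a change of at least 1.5-fold. The share of all tested genes that was called was 31.7% (13.9% higher and 17.8% lower). Both called members were higher, and with 10 members a count of 2 is close to the share called higher. DESeq2 called 3 of 10, all higher, beside 33.5% of all genes (14.2% higher). In edgeR the median log2 fold change of the 10 was 0.41, beside -0.06 over all genes. The groups did not overlap for 5 members, Tgfb1, Tgfbr1, Tgfbr2, Ccn2 and Inhba, against 48.1% of all genes. For each of these the exact permutation test, two-sided, gave p = 0.1, the smallest it allows with 3 against 3.

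The other 8 members were not called with edgeR. Ccn2 had the second largest difference of the 10 (log2 fold change 1.35, 95% interval 0.05 to 2.66) at an adjusted p of 0.11. It was called without FLOX replicate 4 (1.76) and without FLOX_MTX replicate 1 (1.38), replicate 2 (1.36) or replicate 4 (1.37). Inhba differed by 0.86 (interval -0.25 to 1.96) and Tgfbr1 by 0.51 (interval -0.01 to 1.03), and Tgfbr1 was called without KO replicate 1 (0.67). Smad7 differed by -0.09 (interval -0.91 to 0.72). Smad3 had the narrowest interval, -0.40 to 0.24 around a difference of -0.08. Tgfb2 (0.24), Tgfb3 (0.32) and Ltbp2 (-0.00) had intervals that held 0.

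Macrophage markers moved with Tgfb1 and Tgfbr2. The summed level of 10 macrophage markers was 414 to 845 CPM in FLOX, 2691 to 4377 in KO, 697 to 3387 in FLOX_MTX and 3744 to 6017 in KO_MTX, and 9 of the 10 genes were called higher in KO than in FLOX (median log2 fold change 2.43). Of 10 endothelial markers 8 were higher (1.14), and of 10 fibroblast and stromal progenitor markers 8 were higher and 1 lower (1.15). The 9 called epididymis genes and the 12 called testis genes were lower. The part of these cells in the difference of Tgfb1 and Tgfbr2 was not tested. With FLOX reduced to replicate 4, the log2 fold change was 1.35 for Tgfb1 and 1.19 for Tgfbr2, and neither was called.

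**Figure D2:**
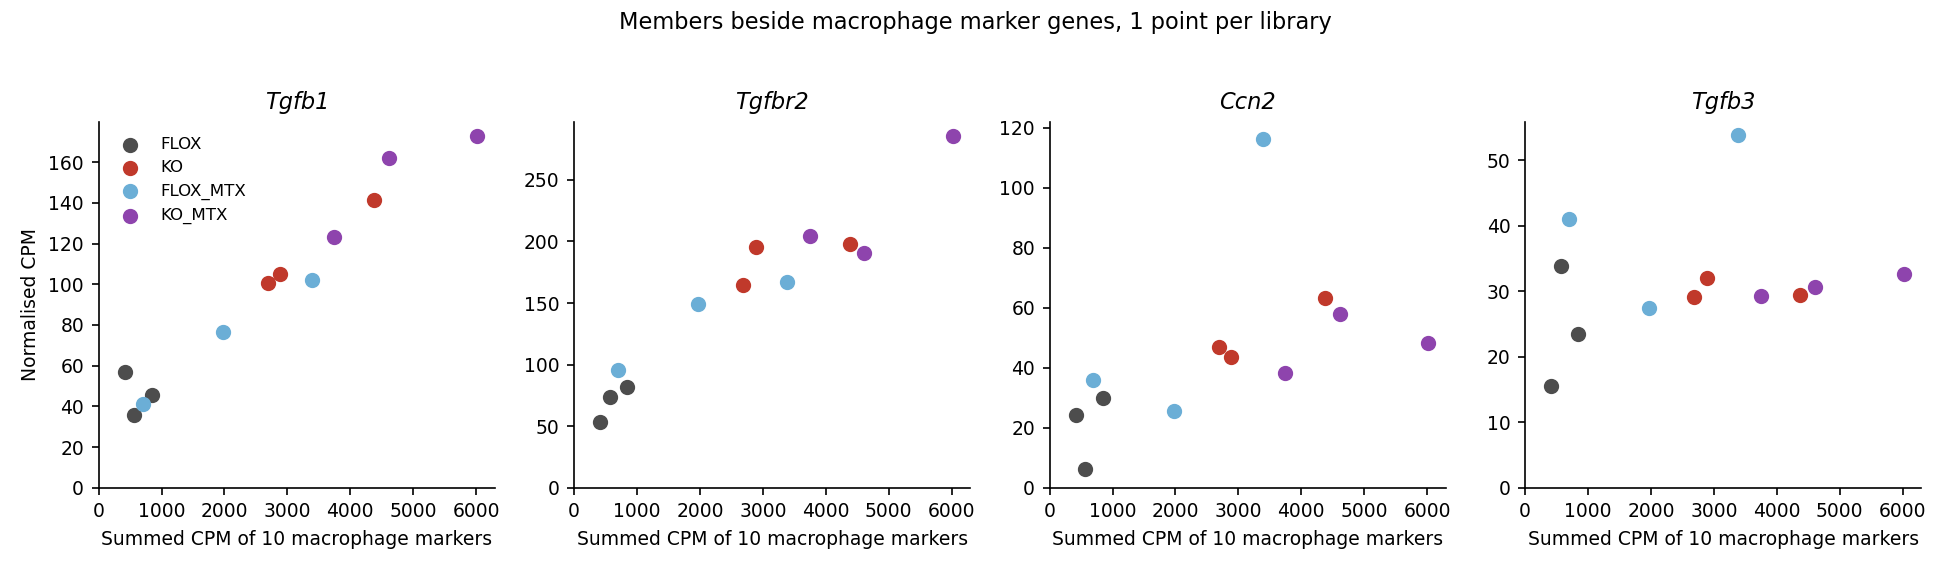
Normalised CPM of Tgfb1, Tgfbr2, Ccn2 and Tgfb3 (vertical axes, from 0) beside the summed CPM of 10 macrophage markers (horizontal axes), 1 point per library, coloured by group. For Tgfb1 and Tgfbr2 the FLOX libraries and FLOX_MTX replicate 4 lie at the lower left and KO_MTX replicate 3 at the upper right, whereas Ccn2 and Tgfb3 are highest in FLOX_MTX replicate 2.

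Under MTX, no member was called between KO_MTX and FLOX_MTX with edgeR, and no gene of the whole table was (0% called, 24.5% at an unadjusted p under 0.05). Tgfb1 was 2.08-fold higher in KO_MTX (log2 fold change 1.06, interval 0.40 to 1.71, adjusted p = 0.109), Tgfbr1 1.65-fold (0.73, interval 0.20 to 1.25) and Tgfbr2 1.65-fold (0.72, interval 0.20 to 1.25). These 3 members had an unadjusted p under 0.05 and were the 3 whose groups did not overlap (26.8% of all genes). DESeq2, the tool named in the methods of the study, called all 3, beside 2769 genes in all (16.8% of those it tested). The 3 were also called by edgeR without FLOX_MTX replicate 2, where the log2 fold changes were 1.37, 0.96 and 0.89. That fit called 20.8% of all genes. Tgfb1 alone was called without FLOX replicate 3 (1.06), beside 5.4% of all genes. Ltbp2 was lower by point estimate (-0.75, interval -1.56 to 0.05), and the other 6 members had intervals that held 0. In this comparison the macrophage markers had a median log2 fold change of 1.28, the adipocyte markers of -1.22 and the mesothelium markers of -0.98, none of them called by edgeR. In the DESeq2 fit 8 of 10 macrophage markers were called higher and 8 of 10 adipocyte markers lower, and without FLOX_MTX replicate 2 these counts were 9 and 8. Over all genes, 7.79% were called higher and 9.0% lower by DESeq2, and 10.6% and 10.2% without that library. The summed adipocyte level was 27363 to 47994 CPM in FLOX_MTX and 9694 to 23862 in KO_MTX. The part of these cells in the differences of the 3 members was not tested.

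In FLOX mice, 3 of the 10 members were higher with MTX than with vehicle. Tgfbr2 was 1.97-fold higher in FLOX_MTX than in FLOX (log2 fold change 0.98, SE 0.24, adjusted p = 0.019), Ccn2 2.95-fold (1.56, SE 0.60, adjusted p = 0.0899) and Tgfb3 1.68-fold (0.75, SE 0.27, adjusted p = 0.0779). Of all genes, 24.2% were called, 8.09% higher and 16.1% lower. Tgfbr2 was the 1 member whose groups did not overlap (28.3% of all genes). It was called in all 12 fits that left out 1 library, with a log2 fold change of 0.82 to 1.19.

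Markers of other cells moved in the same comparison. Of 10 genes each, 9 macrophage markers were called higher (median log2 fold change 1.71), 8 mesothelium markers higher and 1 lower (1.78), 6 lymphocyte markers higher (2.24) and 4 fibroblast and stromal progenitor markers higher (0.68), while 9 epididymis and 12 testis genes were lower. The summed mesothelium level was 286 to 377 CPM in FLOX and 299 to 559 in FLOX_MTX, and the summed lymphocyte level was 579 to 1271 and 1153 to 1819. Without FLOX_MTX replicate 2, 4 macrophage, 7 mesothelium, 0 lymphocyte and 5 fibroblast and stromal progenitor markers were called higher, beside 6.42% of all genes. With the replicate number as a block, these counts were 0, 6, 1 and 2, beside 3.06%. The macrophage and lymphocyte medians were 1.17 and 1.17 in the first fit and 1.51 and 1.71 in the second. FLOX_MTX replicate 4, at a macrophage sum of 697 CPM, lay within the FLOX range of 414 to 845. The part of these cells in the members' differences was not tested. The study reported less macrophage staining in eWAT sections of flox mice given MTX than of those given vehicle. That is the opposite direction to the macrophage marker RNA here, and the difference between these measures was not tested.

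The adjusted p-values of Ccn2 and Tgfb3 lay close to the limit, and their calls were lost in several fits without 1 library. Ccn2 was called in 3 of the 12 fits without 1 library and Tgfb3 in 7. Without FLOX_MTX replicate 2 the log2 fold change was 0.62 for Ccn2 and 0.51 for Tgfb3, and neither was called. The fold change was also lower without FLOX replicate 1 for Ccn2 (1.13) and without FLOX replicate 3 for Tgfb3 (0.51). In the other fits that lost the call the fold change stayed close to that of all 12 libraries or rose. Ccn2 was at 1.72 without FLOX replicate 3 and at 1.57 without any single KO or KO_MTX library, and Tgfb3 was at 0.73 without FLOX replicate 4 and at 0.75 without KO replicate 1 or FLOX_MTX replicate 4. Tgfb1 differed by 0.67 (interval 0.02 to 1.33, adjusted p = 0.137) and was called without FLOX_MTX replicate 4 (0.97). Ltbp2 differed by 0.82 (interval 0.01 to 1.62) and was called without FLOX replicate 1 (1.16) or FLOX_MTX replicate 1 (1.11). With FLOX reduced to replicate 4 no member was called, and Tgfbr2 differed by 0.75.

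FLOX_MTX replicate 2 had the highest value of its group for all 10 members, against 42.2% of all tested genes, and the highest of all 12 libraries for 6 members, against 9.35% of all genes. It also had the highest macrophage and mesothelium sums of its group, 3387 and 559 CPM, and the lowest adipocyte sum, 27363 CPM. KO_MTX replicate 3 was the highest of its group for 8 members, against 39.7% of all genes, with a macrophage sum of 6017 CPM and the lowest adipocyte sum of all libraries, 9694 CPM. The part of these cells in the members' values was not tested.

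**Figure D3:**
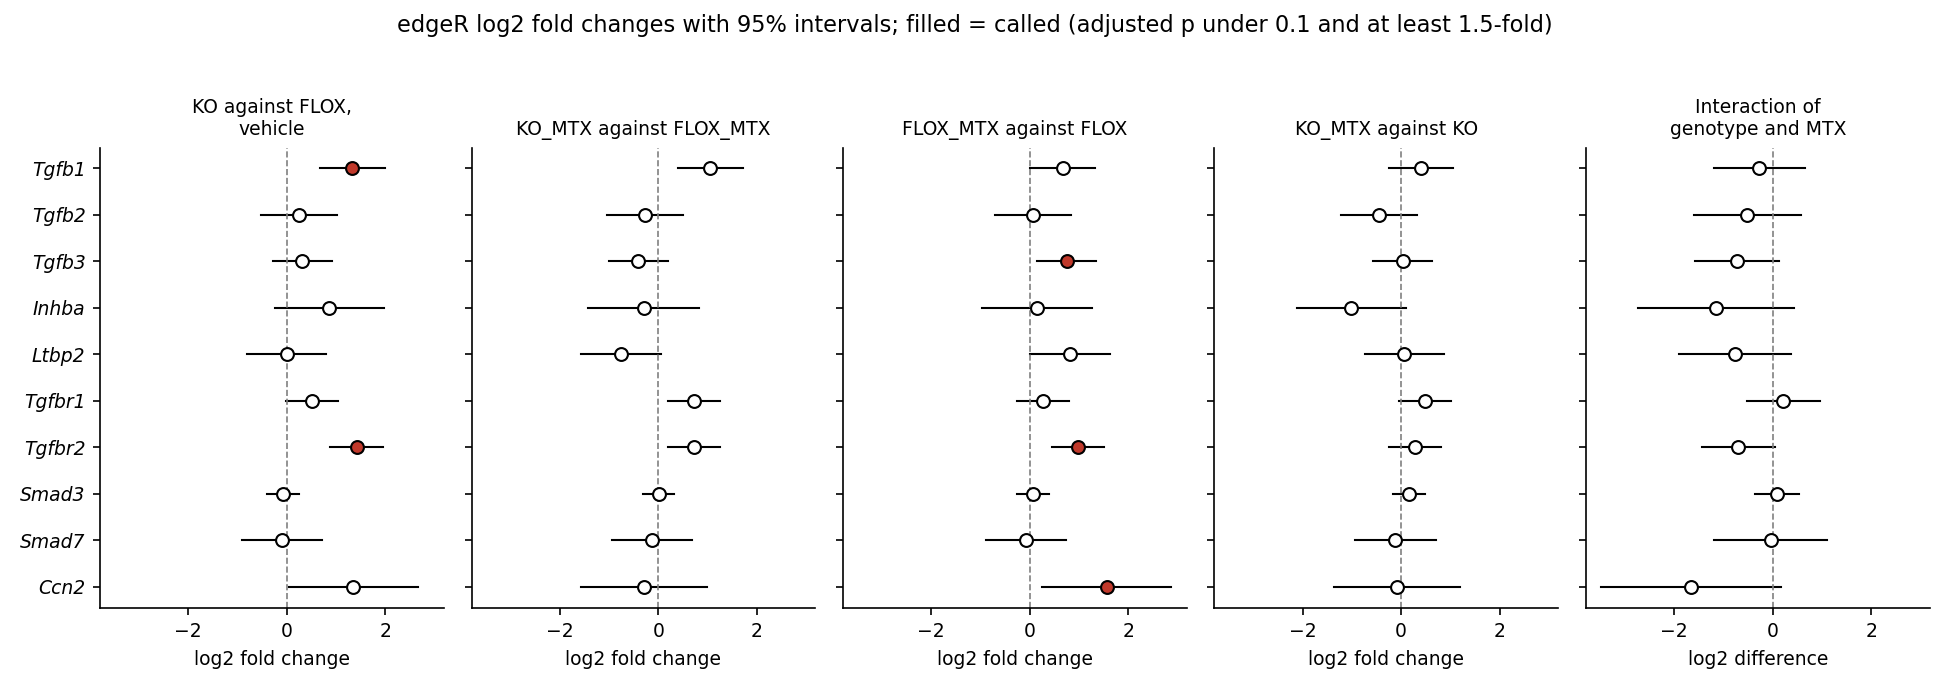
Log2 fold changes (horizontal axes) of the 10 genes in the 4 comparisons and the log2 difference of the interaction, with 95% intervals (lines). Filled points are called genes: Tgfb1 and Tgfbr2 in KO against FLOX, and Tgfbr2, Tgfb3 and Ccn2 in FLOX_MTX against FLOX.

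In KO mice, no member passed the test between MTX and vehicle. None was called between KO_MTX and KO with edgeR, none had an unadjusted p under 0.05, and none was called with DESeq2. Over all genes, 0% were called with edgeR, 7.97% had an unadjusted p under 0.05, and DESeq2 called 281 (1.51%). Inhba was lower by point estimate (log2 fold change -1.01, interval -2.12 to 0.10), and it was the 1 member whose groups did not overlap (20.7% of all genes). Tgfbr1 differed by 0.48 (interval -0.04 to 1.01), Tgfb1 by 0.40 (interval -0.25 to 1.05) and Tgfbr2 by 0.28 (interval -0.24 to 0.81). Ccn2 and Tgfb3, which were called in FLOX mice, differed by -0.09 (interval -1.37 to 1.19) and 0.03 (interval -0.57 to 0.63).

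The difference between the MTX effects in KO and FLOX mice was tested as an interaction, and no member was called, by edgeR or by DESeq2. Of all genes, 0.989% were called with edgeR, 0.898% with a higher and 0.0909% with a lower effect in KO mice. With DESeq2, 6.68% were called. No member had an unadjusted p under 0.05. The largest differences of effects were -1.65 for Ccn2 (interval -3.47 to 0.17), -1.15 for Inhba (interval -2.73 to 0.43) and -0.75 for Ltbp2 (interval -1.89 to 0.38) on the log2 scale, followed by -0.72 for Tgfb3 and -0.70 for Tgfbr2. In the fits without 1 library, they ranged from -2.06 to -0.71 for Ccn2, -1.54 to -0.56 for Inhba and -1.10 to -0.23 for Ltbp2. The median over the 10 members was -0.61 with all libraries and -0.13 without FLOX_MTX replicate 2. The comparisons of KO and of FLOX_MTX with FLOX share the FLOX libraries, so their values are given side by side: 1.42 and 0.98 for Tgfbr2, 1.33 and 0.67 for Tgfb1, and 1.35 and 1.56 for Ccn2.

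The other genes of the pathway were taken from 5 lists with 100 genes, 97 of them tested. Between KO and FLOX, 31 were called higher and 8 lower, with a median log2 fold change of 0.45 beside -0.06 over all genes. Of all tested genes, 13.9% were called higher and 17.8% lower in this comparison, and the counts of each list are to be read against these shares. Of 32 TGF-beta target genes, 17 were higher and 1 was lower (median 1.01). Of 18 genes of ligand latency and activation, 7 were higher and 1 lower (0.66). Of the other ligands and antagonists, 4 were higher and 2 lower of 18 tested (0.41), and of the other receptors and co-receptors 3 were higher and 4 lower of 12 (0.01). None of 17 other Smads and Smad regulators was called with edgeR or DESeq2, and 3 had an unadjusted p under 0.05 (median -0.16), beside 31.7% of all genes called with edgeR and 41.0% at an unadjusted p under 0.05. The study drew an adhesion network from the same libraries, and its overlap with these lists was not examined. The direction of any shared gene is not independent evidence.

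Among the target genes, the largest called differences were those of Timp1, an inhibitor of matrix metalloproteinases (log2 fold change 3.98, SE 0.79), Nox4, an oxidase that makes hydrogen peroxide (2.75, SE 0.54), and Postn, a matricellular protein (2.10, SE 0.39). Timp1 had 4.16 ± 1.82 normalised CPM in FLOX and 65.4 ± 47.6 in KO (SD, n = 3), and Postn had 69.4 to 142 in FLOX and 296 to 611 in KO. In the latency list Bgn, a proteoglycan that binds TGF-beta, was 4.30-fold higher in KO, and Nrros, which anchors latent TGF-beta on macrophage-like cells, was 3.70-fold higher. Itgb6, the beta subunit of an epithelial integrin that activates TGF-beta, was lower: it had 67, 204 and 37 counts in FLOX replicates 1, 3 and 4 and at most 3 counts in the other 9 libraries. Among ligands, Gdf3 was higher (log2 fold change 4.44, SE 0.82), as were Fstl1 (1.87, SE 0.30) and Fst, the activin antagonist follistatin (1.43, SE 0.29).

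Of the receptors, Eng, the endothelial co-receptor endoglin, was 2.74-fold higher in KO, at 171 ± 10.2 against 62.5 ± 2.82 normalised CPM in FLOX (SD, n = 3). Acvr1c, an adipocyte receptor for activins and related ligands, was lower in KO (log2 fold change -1.48, SE 0.50). Bmpr1b, a type I receptor for bone morphogenetic proteins, was also lower (-4.49, SE 0.91), at 27.2, 55.9 and 16.5 normalised CPM in FLOX replicates 1, 3 and 4 and at 0.703 to 2.20 in KO. Itgb6 and Bmpr1b were highest in FLOX replicate 3, which also had the highest epididymis sum, and Bmpr1b had its highest value outside FLOX, 4.96, in FLOX_MTX replicate 1. The part of epididymis in these differences was not tested. In the list with no call, Smad5 had the smallest unadjusted p (-0.43, SE 0.11), a change below 1.5-fold.

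**Figure D4:**
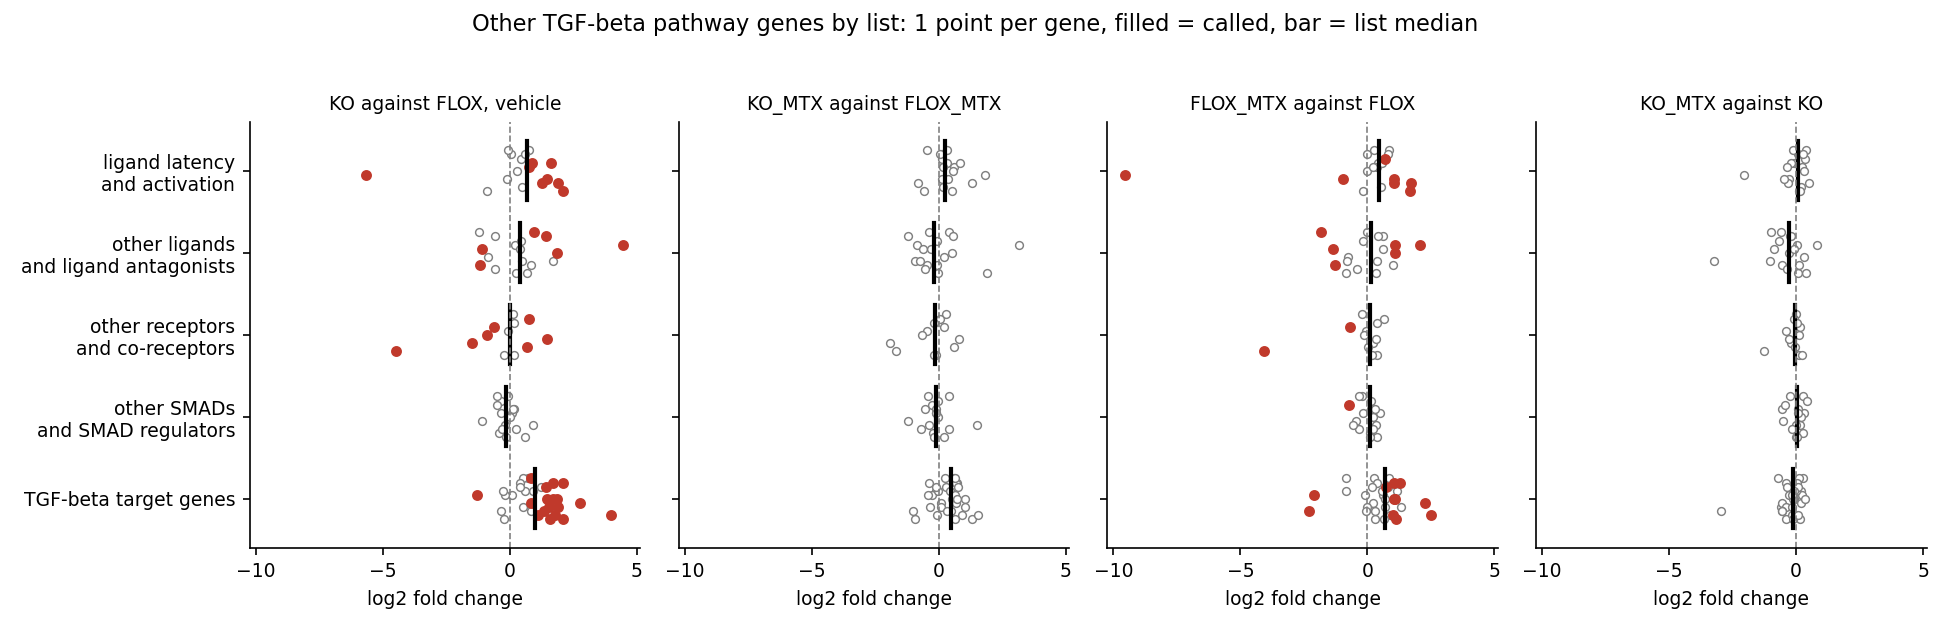
Log2 fold changes (horizontal axes) of the other TGF-beta pathway genes in the 4 comparisons, by list, with 1 point per tested gene (filled where called) and the list median (bar). Points are spread vertically only for legibility. The target genes have the highest median in KO against FLOX, 1.01, and no gene is called in KO_MTX against FLOX_MTX or in KO_MTX against KO.

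Between FLOX_MTX and FLOX, 17 of the 97 genes were called higher and 10 lower, beside 8.09% and 16.1% of all genes, with a median log2 fold change of 0.29 beside 0.05 over all genes. The target genes Timp1 (5.66-fold, SE 0.75 on the log2 scale) and Nox4 (log2 fold change 2.26, SE 0.53) were higher and Cnn1, a smooth muscle calponin, was lower (-2.31, SE 0.63). In the latency list Fmod, a collagen-binding proteoglycan (1.73, SE 0.34), and Bgn (1.67, SE 0.40) were higher, and Itgb6, with 0 counts in all 3 FLOX_MTX libraries, was at least 27.1-fold lower against a level of 3 counts per library. Gdf3 was higher (2.07, SE 0.79), and Inha (-1.82, SE 0.63) and Bmp7 (-1.36, SE 0.32) were lower. The FLOX_MTX and FLOX libraries overlapped for Timp1, Gdf3 and Inha, and the adjusted p in edgeR was 0.0905 for Gdf3 and 0.0654 for Inha. Inha (-1.23, not called) and Bmp7 (-1.12, called) were also lower in KO than in FLOX. The part of the epididymis and testis signal of FLOX in the differences of Inha and Bmp7 was not tested. Bmpr1b (-4.08, SE 0.89), Acvr1b (-0.67, SE 0.16) and Smad6, an inhibitory Smad of the bone morphogenetic protein branch (-0.70, SE 0.26), were lower. The split of calls depended on the scaling: with library size alone 6 of the 97 genes were higher and 11 lower, and over all genes 766 of 4373 calls were higher, against 1513 of 4528. That scaling moved the median of all genes from 0.05 to -0.15.

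With FLOX reduced to replicate 4, 5 of the 97 genes were called higher and 2 lower in KO, where 7.07% of all genes were called, and 0 higher and 1 lower in FLOX_MTX, where 2.9% were called. No gene of the 5 lists was called by edgeR between KO_MTX and FLOX_MTX (21 at an unadjusted p under 0.05, 16 called by DESeq2), between KO_MTX and KO (7 and 3) or for the interaction (18 and 9). Of all genes, 24.5%, 7.97% and 15.0% had an unadjusted p under 0.05 in these 3 comparisons, and 16.8%, 1.51% and 6.68% were called by DESeq2. In the first of these, the genes with the smallest unadjusted p of their lists were Nrros (log2 fold change 1.32), Gdf3 (3.18), Eng (0.80), Zfyve9 (-0.70) and Postn (1.32). Between KO_MTX and KO they were Ltbp1 (-0.47), Bmp4 (-1.02), Eng (-0.29), Smad5 (0.28) and Cnn1 (-2.97), and for the interaction Fmod (-2.06), Bmp4 (-1.39), Acvr1b (0.84), Ski (0.48) and Sphk1 (1.94).

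Tgfb1 and Tgfbr2 were the members that moved together with a called difference in KO, so the 250 bases before their annotated starts are shown (RefSeq, GRCm38.p6), with matches to the Smad-binding letters CAGAC and the GC-rich Smad letters GGCGC, searched on both strands, in capitals.
Tgfb1, chr7:25686752-25687001, plus strand: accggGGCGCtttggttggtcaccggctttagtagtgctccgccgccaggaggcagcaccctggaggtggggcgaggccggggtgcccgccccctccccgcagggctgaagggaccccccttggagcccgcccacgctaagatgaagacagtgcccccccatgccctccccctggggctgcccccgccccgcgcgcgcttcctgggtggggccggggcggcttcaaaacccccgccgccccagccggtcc
Tgfbr2, chr9:116175364-116175613, minus strand: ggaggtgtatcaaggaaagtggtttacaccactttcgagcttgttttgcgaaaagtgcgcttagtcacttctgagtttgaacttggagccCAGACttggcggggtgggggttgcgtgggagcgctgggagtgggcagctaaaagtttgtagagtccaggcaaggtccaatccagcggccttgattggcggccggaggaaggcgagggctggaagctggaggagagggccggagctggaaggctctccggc
The Tgfb1 window held 1 GGCGC and no CAGAC and was 75.2% G and C, and the Tgfbr2 window held 1 CAGAC and no GGCGC and was 58.4% G and C, beside a median of 52.4% over all promoters. Of 32544 promoters, 42.2% held CAGAC and 32.2% held GGCGC. The letters CATTCC (the TEAD motif, in 12.6% of all promoters) and TGANTCA (the AP-1 motif, in 6.73%) were in none of the windows found for 7 of the 10 members. A match is a description of the letters and not a binding site.

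Over the 12 libraries, the genes whose pattern was most like that of Tgfb1 among 11853 genes with a mean of at least 5 normalised CPM were Mcm6, a subunit of the replicative helicase, Metrnl, a secreted hormone-like protein, and Was, a regulator of actin in blood cells (Pearson r 0.99 on the log2 scale for each). For Tgfbr2 they were Tlr7, an RNA sensor of immune cells, Selenop, a selenium carrier, and Timp2, a metalloproteinase inhibitor (0.99 each). For Ccn2 they were Mfap4, an elastic fibre protein (0.95), Fbxw7 (0.92) and Trim12c (0.92), and for Tgfb3 Irf4 (0.91), Gata6 (0.90) and Tspan5 (0.90). Ltbp2 was most like Ighg1 (0.93), an antibody heavy chain, Bcl2 (0.92) and Igkv6-17 (0.92). Among the members, the most alike were Tgfb1 and Tgfbr2 (0.89), Tgfb1 and Tgfbr1 (0.87) and Tgfb3 and Ltbp2 (0.84). These values describe 12 libraries that share groups, depth and tissue composition.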

How the data were processed

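RNA-seq libraries of white adipose tissue from 12 samples in 4 groups of 3 were analysed. The authors trimmed reads with Trimmomatic 0.36, aligned them to mm10 with STAR 2.5.2b and used featureCounts (Subread 1.5.2) for Ensembl genes, and the deposited values are raw counts that were not normalised. Strand and multimapping settings are not given in the sources used here, and the labels name polyA RNA where the methods name ribosomal RNA depletion. Symbols were paired with 99.3% of the 49315 genes, and rows without a symbol held 0.0688% of counts.

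Genes with low counts were removed with filterByExpr, TMM factors were computed, and all 12 libraries were fitted with 1 coefficient per group by edgeR 4.0.16 (R 4.3.3, quasi-likelihood F-test, Benjamini-Hochberg adjustment over 18702 genes). A gene was called at an adjusted p under 0.1 and a change of at least 1.5-fold. DESeq2 1.42.0 was an alternative. Permutation tests and likeness used log2(CPM + 0.5). The script was tested on simulated data. Intervals are 95% intervals. Group labels gave the groups, and no pair of libraries within a group agreed within sampling noise. The intervals of a count of 0 cover counting error only.

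The members and lists were chosen with earlier results of these data known. Named were all 10 members, the 3 called genes with the largest change per pathway list and comparison (or, with none called, the gene with the smallest p), and the 3 genes most like each member. Genes named beyond this rule were chosen after their values were seen.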

Additional observations from a re-analysis of the deposited data

How the results depend on the processing

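Tgfb1 and Tgfbr2 were called in KO against FLOX in all 12 fits that left out 1 library, and Tgfbr2 in FLOX_MTX against FLOX in all 12. With FLOX reduced to replicate 4, an alternative chosen after seeing the data, 0 members were called in either comparison (adjusted p 0.131 for Tgfb1 and 0.103 for Tgfbr2 in KO against FLOX). That fit has fewer samples. With the own libraries of the comparison only, 4 members were called in KO against FLOX, beside 33.1% of all genes. DESeq2 and the replicate block called 3 each in this comparison, beside 33.5% and 27.2% of all genes. Between KO_MTX and FLOX_MTX, 3 members were called with DESeq2 (16.8% of all genes), 1 with no filter (2.53%) and 2 with the filter of 10 counts in each library (10.6%). Without single libraries, 0 to 3 members were called (0% to 20.8% of all genes). Between FLOX_MTX and FLOX, 1 was called, Tgfbr2, with library size only, with at least 10 counts in every library, with the replicate block and with own libraries only, and 1 to 4 without single libraries. The shares of all genes called were, in that order, 23.4%, 15.6%, 14.8% and 12.2%, and 11.7% to 30.9% without single libraries. The cause was not tested.

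Over all genes, calls in KO against FLOX fell from 5924 to 1415 with FLOX reduced to replicate 4. Calls in FLOX_MTX against FLOX fell from 4528 to 2198 with at least 10 counts in every library, 2771 with the block, 2167 with own libraries, 580 with FLOX reduced and 2219 without FLOX replicate 3. For KO_MTX against FLOX_MTX they were 0 with edgeR and 2769 with DESeq2, 875 with no filter, 1491 with at least 10 counts, 4 with own libraries, 899 without the FLOX group, 17 with FLOX reduced, 1028 without FLOX replicate 3, 76 without FLOX_MTX replicate 1 and 4064 without FLOX_MTX replicate 2. For KO_MTX against KO they were 0, and 281 with DESeq2, 20 with no filter, 3 with own libraries and 215 without KO replicate 3. For the interaction they were 185, and 1248 with DESeq2, 472 with no filter, 1 with at least 10 counts, 0 with the block, 5 with FLOX reduced and 5 to 1371 without single libraries.

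Sign changes were confined, among the alternatives run, to member differences that were not called. Ltbp2 in KO against FLOX was 0.027 with no filter, 0.0013 with own libraries and 0.25 with FLOX reduced. Smad3 in KO_MTX against FLOX_MTX was -0.00088 with RLE factors, -0.0011 with DESeq2, -0.0050 with at least 10 counts, -0.055 with the block and -0.014 with own libraries. In FLOX_MTX against FLOX, library size only gave -0.0065 for Inhba, -0.12 for Smad3 and -0.084 for Tgfb2, the block gave -0.20 for Inhba and -0.088 for Tgfb2, and FLOX reduced gave -0.065 for Smad3. The Smad7 interaction was 0.080 with library size only, 0.048 with the block and 0.51 with FLOX reduced.

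Without single libraries, the ranges in KO against FLOX were -0.19 to 0.35 for Ltbp2, -0.14 to 0.0073 for Smad3 and -0.32 to 0.30 for Smad7. In KO_MTX against FLOX_MTX they were -0.65 to 0.66 for Ccn2, -0.66 to 0.30 for Inhba, -0.10 to 0.15 for Smad3, -0.36 to 0.35 for Smad7 and -0.63 to 0.23 for Tgfb2. In FLOX_MTX against FLOX they were -0.44 to 0.53 for Inhba, -0.054 to 0.20 for Smad3, -0.54 to 0.32 for Smad7 and -0.42 to 0.27 for Tgfb2. In KO_MTX against KO they were -0.24 to 0.092 for Ccn2, -0.079 to 0.26 for Ltbp2, -0.29 to 0.13 for Smad7 and -0.012 to 0.075 for Tgfb3. For the interaction they were -0.045 to 0.21 for Smad3, -0.43 to 0.43 for Smad7 and -0.57 to 0.033 for Tgfb1.

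The replicate numbers of the labels did not pair the libraries: the deviations of 12 same-numbered pairs had a median correlation of 0.0353 and those of 42 other pairs 0.0112. Inhba had 7 to 52 counts per library.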
